A study of Homo sapiens with 4 samples.

Results

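The 8 mature products of the skeletal muscle miRNAs miR-206, miR-1, miR-133 and miR-486 were followed through native pull-downs of circHIPK3. They are hsa-miR-206, hsa-miR-1-3p, hsa-miR-1-5p, hsa-miR-133a-3p, hsa-miR-133a-5p, hsa-miR-133b, hsa-miR-486-5p and hsa-miR-486-3p, written below without the species prefix. They were chosen by name, though with earlier results of these data known, and the rule that lists them reads no measured value. All 8 were present among the 2656 mature miRNAs counted. The cells were RD, an established cell line from a human embryonal rhabdomyosarcoma, which is a tumour resembling immature skeletal muscle, and they were untreated in every group. CircHIPK3 forms when exon 2 of HIPK3 is joined to itself as a circle, and the same exon is part of the linear HIPK3 transcript. The 4 groups were a pull-down with the EVEN set of biotinylated antisense probes against that exon, a pull-down with the separate ODD set against the same exon, a pull-down with control probes against the bacterial LacZ mRNA, and the input lysate. Each group was 1 library of 1 biological replicate, so differences have no replicate check, and intervals below cover counting error only. Totals were 98950 miRNA reads in EVEN, 426450 in ODD, 425395 in LacZ and 2987858 in the input. Levels are in CPM, a miRNA's reads scaled to a common library total, and a share can be higher only because others are lower.

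miR-1, miR-133 and miR-206 are the classical muscle miRNAs. Their genes lie in pairs, and each pair yields 1 product of the miR-1 type and 1 of the miR-133 type from a common precursor region. In mouse muscle cells miR-1 and miR-206 favour differentiation, while miR-133 favours the proliferation of myoblasts. miR-206 is the member most restricted to skeletal muscle, and raising it in rhabdomyosarcoma cells is known to push them towards differentiation. miR-486 comes from an intron of the ankyrin gene ANK1 and is abundant both in muscle and in red blood cells.

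The sequences are shown because the members fall into families that share a seed, the part that pairs with targets, while differing elsewhere. Mature sequences were taken from RefSeq on GRCh38.p14 and were used for 6 of the 8 members. None was used for the 2 miR-486 arms, so the GC contents of members and the seed search below leave them out. They are written 5′ to 3′ with the seed, bases 2 to 8, in capitals.
miR-206: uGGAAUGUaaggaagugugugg
miR-1-3p: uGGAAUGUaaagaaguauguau
miR-133a-3p: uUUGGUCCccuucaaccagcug
miR-133b: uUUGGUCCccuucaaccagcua
miR-1-5p: aCAUACUUcuuuauaugcccau
miR-133a-5p: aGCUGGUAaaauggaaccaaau
All 6 are 22 nt long. How evenly the libraries recovered different sequences was not tested, so shares of different members compare reads only. miR-206 and miR-1-3p share the seed GGAAUGU and differ at 4 positions outside it, counted from the 5′ end of miR-206 as G11A, G17A, G21A and G22U with the miR-206 base first. miR-133a-3p and miR-133b share the seed UUGGUCC and differ only by G22A, at the last base. The sources used here do not give how reads that fit both were divided, so the split between miR-133a-3p and miR-133b is uncertain. miR-613, also with the GGAAUGU seed, had 0 reads in all 4 libraries.

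On GRCh38, MIR206 lies on chromosome 6 at 52144349 to 52144434 on the plus strand, outside any other annotated gene, and MIR133B follows at 52148923 to 52149041, 4488 bases further on, opposite an intron of the non-coding gene LINCMD1. miR-1-3p and miR-133a-3p each come from 2 loci. MIR1-1 (62554306 to 62554376) and MIR133A2 (62564912 to 62565013) lie on the plus strand of chromosome 20 in the host transcript MIR1-1HG, in an intron and in an exon. MIR1-2 (21829004 to 21829088) and MIR133A1 (21825698 to 21825785) lie on the minus strand of chromosome 18 in MIR133A1HG, opposite an intron of MIB1.  The hairpins below show where the rare and the abundant arm of a precursor sit, with the mature arms in capitals.
MIR1-1: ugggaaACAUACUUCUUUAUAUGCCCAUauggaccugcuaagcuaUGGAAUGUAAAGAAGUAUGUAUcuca
MIR133A2: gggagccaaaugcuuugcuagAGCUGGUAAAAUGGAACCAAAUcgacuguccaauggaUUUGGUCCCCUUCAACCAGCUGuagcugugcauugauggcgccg

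miR-206 dominated the muscle miRNAs in every library. It had 9431 reads in EVEN, 13964 in ODD, 25102 in LacZ and 125781 in the input, which is 95311, 32745, 59009 and 42097 CPM. It ranked 3rd, 6th, 3rd and 4th among all miRNAs of those libraries. Its share was thus highest in EVEN and lowest in ODD, with LacZ and the input between them. Together the 8 members took 11.3% of EVEN reads (95% exact binomial interval 11.1 to 11.5), 3.80% of ODD (3.75 to 3.86), 7.27% of LacZ (7.19 to 7.34) and 6.38% of the input (6.36 to 6.41). Of these muscle reads miR-206 made up 84.3% in EVEN, 86.1% in ODD, 81.2% in LacZ and 66.0% in the input. In bulk lysates, fewer cells holding a miRNA and less of it per cell cannot be told apart.

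miR-1-3p, which shares its seed with miR-206, came next after it in the input and in LacZ but not in EVEN or ODD, and its share of the muscle reads was lower in every pull-down than in the input. It had 161 reads in EVEN, 598 in ODD, 2050 in LacZ and 41814 in the input, or 1627, 1402, 4819 and 13995 CPM. Its level was highest in the input, lower in LacZ and lowest in the 2 circHIPK3 pull-downs, which lay close together. miR-1-3p was 21.9% of the muscle reads in the input (21.7 to 22.1), against 1.44% in EVEN, 3.69% in ODD and 6.63% in LacZ. Its partner arm miR-1-5p was rare, with 0, 2, 0 and 71 reads in EVEN, ODD, LacZ and the input. A count of 0 allows up to 30.3 CPM in EVEN and 7.05 CPM in LacZ, and the input level was 23.8 CPM, so loss of miR-1-5p in EVEN was not detectable at this depth.

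miR-133a-3p had 641 reads in EVEN, 338 in ODD, 1272 in LacZ and 14975 in the input, or 6478, 793, 2990 and 5012 CPM. The EVEN library was highest and ODD far below the other 3. miR-133b, encoded beside MIR206, had 36, 13, 57 and 3052 reads, or 364, 30.5, 134 and 1021 CPM in EVEN, ODD, LacZ and the input. All 3 pull-downs lay below the input for miR-133b, with EVEN above LacZ and ODD below it. The partner arm miR-133a-5p had 0, 6, 55 and 786 reads, or up to 30.3, 14.1, 129 and 263 CPM, and was lowest in the circHIPK3 pull-downs.

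The hairpins MIR486-1 (41660441 to 41660508, minus strand) and MIR486-2 (41660444 to 41660507, plus strand) overlap on chromosome 8 within an intron of ANK1, and whether strand was used in counting is not stated, so their products cannot be told apart by locus. miR-486-5p had 634 reads in EVEN, 910 in ODD, 1726 in LacZ and 3211 in the input. These are 6407, 2134, 4057 and 1075 CPM. Its partner arm miR-486-3p had 291, 384, 647 and 1029 reads, or 2941, 900 and 1521 CPM in EVEN, ODD and LacZ and 344 CPM in the input. Both arms kept the same order, with every pull-down above the input and EVEN highest. The markers of red blood cells, the other known source of miR-486, were at or near 0, as miR-451a and miR-144-5p had 0 reads in all 4 libraries and miR-144-3p had 1 read, in the input.

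**Figure D1:**
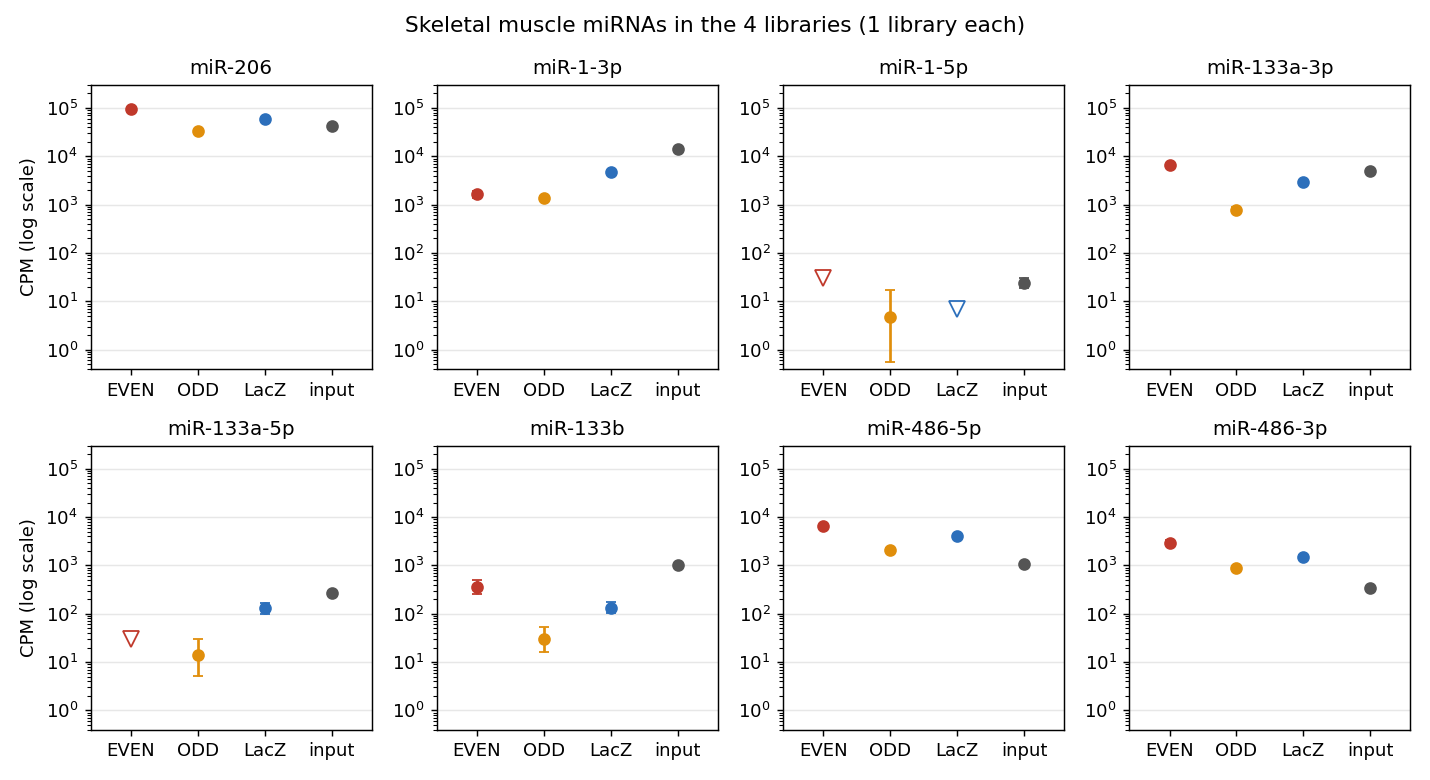
Level of each muscle miRNA (CPM, log axis) in EVEN, ODD, LacZ and input, 1 library each. Points are CPM with 95% exact binomial intervals, open triangles mark the level that a count of 0 allows, and miR-206 lies at 32745 CPM or higher in all 4 libraries while miR-1-3p lies highest in the input and both miR-486 arms lie lowest there.

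Within a library the order of the muscle miRNAs by reads could mostly be told apart by counting error. In EVEN the intervals of miR-133a-3p (5988 to 6998 CPM) and miR-486-5p (5920 to 6924) overlapped. There miR-1-5p and miR-133a-5p were both at 0 reads. In ODD those of miR-133a-3p (710 to 882 CPM) and miR-486-3p (813 to 995) overlapped, and so did those of miR-133b (16.2 to 52.1), miR-133a-5p (5.16 to 30.6) and miR-1-5p (0.568 to 16.9). In LacZ the intervals of miR-133b (101 to 174 CPM) and miR-133a-5p (97.4 to 168) overlapped, and in the input those of miR-486-5p (1038 to 1112 CPM) and miR-133b (986 to 1058).

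EVEN was set against LacZ to see which muscle miRNAs came down with probes for circHIPK3 more than with control probes. A miRNA was compared when either library had at least 20 reads, and was counted as higher or lower when the log2 ratio of its shares, with 0.5 added to each count, reached 2-fold. Of the 7 members compared, 2 were higher with EVEN probes and 2 lower. miR-133b was 2.72-fold higher in EVEN (95% exact conditional interval 1.74 to 4.19, from 36 and 57 reads), and miR-133a-3p was 2.17-fold higher (1.97 to 2.38). Both lower bounds lie under 2-fold. miR-1-3p was 2.96-fold lower (2.52 to 3.50), and miR-133a-5p, with 0 EVEN reads, was at least 4.26-fold lower against a floor of 3 counts in that library. The floor takes no account of counting error in LacZ, and the exact lower limit for miR-133a-5p was 3.35-fold. miR-486-3p (1.93-fold higher, 1.68 to 2.22), miR-206 (1.62-fold, 1.58 to 1.65) and miR-486-5p (1.58-fold, 1.44 to 1.73) lay above LacZ without reaching 2-fold.

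Among all 289 miRNAs compared, 9.69% were at least 2-fold higher in EVEN and 51.2% at least 2-fold lower. These shares were 12.5% and 40.8% under TMM factors, 14.9% and 37% under those of median-of-ratios, and 15.2% and 36.7% when totals omitted the 10 most abundant miRNAs of each library. The muscle miRNAs at least 2-fold higher then numbered 3, 5 and 5, with 2 lower each time. The median log2 ratio was 0.69 over the 7 muscle miRNAs and -1.06 over all 289, and -0.94 over all when miRNAs at 0 reads were set to their bound. Relative to the median of all, miR-133b lay 2.51 higher on the log2 scale, miR-133a-3p 2.18, miR-486-3p 2.01, miR-206 1.75 and miR-486-5p 1.72. miR-1-3p lay below it, at -0.50, and miR-133a-5p, at 0 EVEN reads, at -3.63. The value for miR-133a-5p rests on the added 0.5, and its bound is only the at least 4.26-fold given above.

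With ODD probes no muscle miRNA was at least 2-fold above LacZ, and 4 of 7 were at least 2-fold lower. miR-133a-5p was 9.19-fold lower in ODD (3.96 to 26.1, from 6 and 55 reads) and miR-133b 4.40-fold lower (2.38 to 8.75, from 13 and 57 reads). miR-133a-3p was 3.77-fold lower (3.34 to 4.27) and miR-1-3p 3.44-fold lower (3.14 to 3.77). By library totals miR-486-5p (1.90-fold lower, 1.75 to 2.06), miR-206 (1.80-fold, 1.77 to 1.84) and miR-486-3p (1.69-fold, 1.49 to 1.92) were also below LacZ. These 3 changed direction under TMM factors, to log2 ratios of 0.36, 0.44 and 0.53, and under median-of-ratios size factors, to 0.52, 0.60 and 0.69. miR-486-3p also did so, at 0.05, when totals omitted the most abundant miRNAs.

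Among all 300 miRNAs compared, 13% were at least 2-fold higher in ODD and 70.3% at least 2-fold lower, so 4 of 7 lower is no larger a share than the background. Under TMM factors 22% were higher and 34.3% lower, under median-of-ratios size factors 22.7% were higher and 32% lower, and totals that omit the most abundant miRNAs gave 19.3% and 49.7%. The muscle miRNAs at least 2-fold lower then numbered 1, 1 and 3. The median log2 ratio was -1.78 over the 7 muscle miRNAs and -1.79 over all 300, and TMM factors moved the median of all to -0.50. Relative to the median of all, miR-486-3p lay 1.04 higher on the log2 scale, miR-206 0.94 and miR-486-5p 0.87. miR-1-3p was close to it at 0.01, with miR-133a-3p at -0.12, miR-133b at -0.30 and miR-133a-5p at -1.30.

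**Figure D2:**
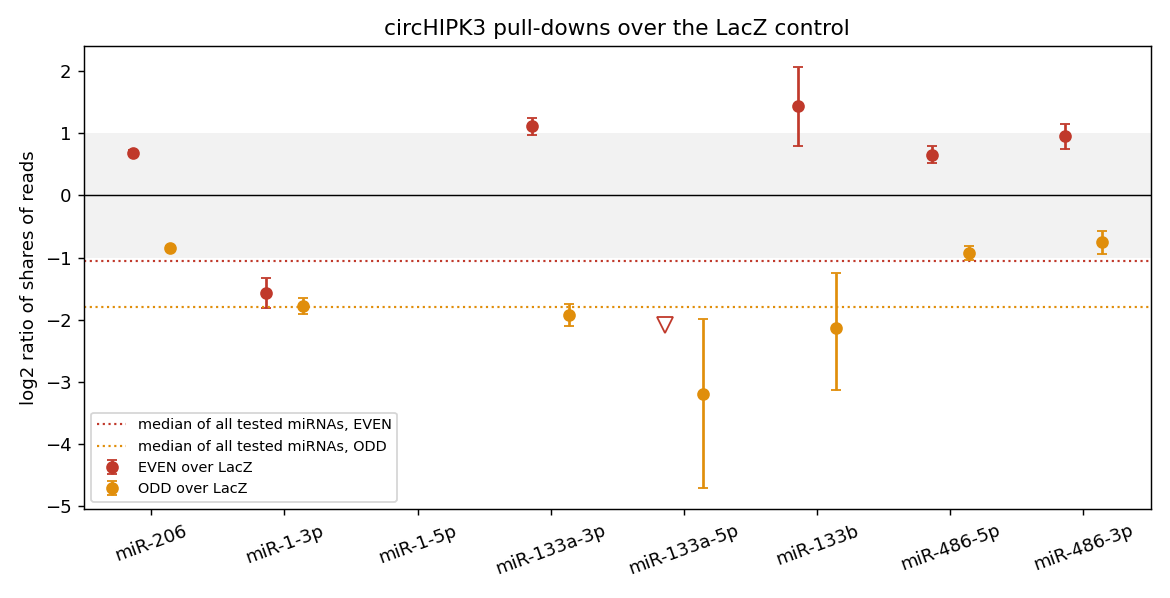
Log2 ratio of each muscle miRNA in EVEN and in ODD over LacZ, with 95% exact conditional intervals. The open triangle is the bound for miR-133a-5p at 0 EVEN reads, the grey band is within 2-fold, dotted lines are the medians of all miRNAs compared (-1.06 and -1.79), and miR-1-5p is not drawn because it had fewer than 20 reads in each of these libraries. miR-206, miR-133a-3p, miR-133b and both miR-486 arms lie above 0 with EVEN and below 0 with ODD by library totals, and miR-1-3p lies below 0 with both.

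Of the muscle miRNAs, miR-1-3p and miR-133a-5p were at least 2-fold below LacZ with both probe sets, which share the LacZ library. That is 2 of 7, beside 46.5% of all 284 miRNAs compared with both sets, so it is no larger a share than the background. Under TMM factors miR-1-3p had log2 ratios of -1.30 in EVEN and -0.49 in ODD, so its ODD value then lay within 2-fold. As an alternative, EVEN and ODD were fitted together as if replicates of 1 condition, although their probes differ, with LacZ alone on the other side. There edgeR's quasi-likelihood test called 0 of 305 miRNAs at an adjusted p of 0.05. It gave 15 higher and 16 lower at an unadjusted p under 0.05, and DESeq2 gave 3 higher and 1 lower after adjustment. The 7 muscle miRNAs had edgeR adjusted p from 0.471 to 0.921, and DESeq2 adjusted p from 0.709 to 0.974 for the 6 with a value.

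Set against each other, the 2 circHIPK3 probe sets differed most in the miR-133 family among the members compared, though not among all miRNAs. miR-133b was 11.9-fold higher in EVEN than in ODD (6.18 to 24.5) and miR-133a-3p 8.17-fold higher (7.15 to 9.35). miR-486-3p was 3.27-fold higher (2.79 to 3.81), miR-486-5p 3.00-fold (2.71 to 3.33) and miR-206 2.91-fold (2.84 to 2.99), while miR-1-3p was 1.16-fold higher with an interval that includes 1 (0.969 to 1.38). Thus 5 of the 6 members compared were at least 2-fold higher in EVEN and 0 lower, beside 37.9% higher and 18.2% lower among all 203 miRNAs. Those background shares were 9.85% and 31.5% under TMM factors, 9.36% and 31.5% under median-of-ratios size factors, and 23.6% and 20.2% when totals omitted the most abundant miRNAs. Under TMM factors 2 members stayed at least 2-fold higher, miR-133a-3p at a log2 ratio of 2.01 and miR-133b at 2.52, and under median-of-ratios size factors the same 2, at 1.99 and 2.50. miR-1-3p changed direction in the 3 settings, to -0.81, -0.82 and -0.16. By library totals the median log2 ratio of EVEN over ODD was 1.65 over the 6 members and 0.64 over all 203 miRNAs. Under TMM factors these medians were 0.62 and -0.38.

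LacZ is not a human gene, so its probes serve as the background control, here set against the input. What the LacZ probes themselves bind was not tested. Both miR-486 arms were higher in LacZ than in the input, miR-486-3p by 4.42-fold (3.996 to 4.88) and miR-486-5p by 3.78-fold (3.56 to 4.004). miR-133b was 7.62-fold lower in LacZ (5.87 to 10.1), miR-1-3p 2.90-fold lower (2.78 to 3.04) and miR-133a-5p 2.03-fold lower (1.55 to 2.73). miR-1-5p, with 0 LacZ reads, was at least 3.37-fold lower against a floor of 3 counts, with an exact lower limit of 2.67-fold. miR-133a-3p was 1.68-fold lower (1.58 to 1.78), and miR-206 was 1.40-fold higher (1.38 to 1.42) by library totals but had a log2 ratio of -0.11 under TMM factors. These are 2 of 8 members higher and 4 lower, beside 18.1% higher and 34.3% lower among all 475 miRNAs. The background shares were 13.3% and 51.8% under TMM factors, 15.4% and 40.8% under median-of-ratios size factors, and 22.7% and 26.7% when totals omitted the most abundant miRNAs. With 5 added to each count the background was 100 higher and 93 lower of 475. The median log2 ratio was -0.88 over the 8 members and -0.44 over all.

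The EVEN and ODD pull-downs were also set against the input. miR-486-3p was 8.54-fold higher in EVEN (7.47 to 9.74) and 2.61-fold higher in ODD (2.32 to 2.94) than in the input. miR-486-5p was 5.96-fold higher in EVEN (5.47 to 6.49) and 1.99-fold in ODD (1.84 to 2.14). Both arms were also above the input in the LacZ control. miR-206 was 2.26-fold higher in EVEN (2.22 to 2.31) and 1.29-fold lower in ODD (1.26 to 1.31), and the ODD value turned to a log2 ratio of 0.32 under TMM factors, 0.80 under median-of-ratios size factors and 0.77 when totals omitted the most abundant miRNAs.

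miR-1-3p was 8.60-fold lower in EVEN (7.37 to 10.1) and 9.98-fold lower in ODD (9.21 to 10.8) than in the input. miR-133b was 2.81-fold lower in EVEN (2.02 to 4.02) and 33.5-fold lower in ODD (19.6 to 63.0). miR-133a-3p was 1.29-fold higher in EVEN (1.19 to 1.40) and 6.32-fold lower in ODD (5.68 to 7.06). miR-133a-5p was at least 8.68-fold lower in EVEN against a floor of 3 counts, with an exact lower limit of 7.04-fold. In ODD miR-133a-5p was 18.7-fold lower (8.55 to 51.1), and miR-1-5p was 5.07-fold lower (1.35 to 42.7, from 2 and 71 reads).

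By the ratio with 0.5 added, 3 of 8 members were higher and 4 lower in EVEN, beside 18.3% and 52.2% of all 464 miRNAs. With 5 in place of 0.5 added to each count, the background turned to 194 higher and 99 lower of 464 in EVEN, the library in which an added constant weighs most. One of these 4 members, miR-1-5p, rests on the added 0.5, since its input level lies under the limit of a count of 0 in EVEN. In ODD 1 of 8 was higher and 5 lower, beside 13% and 68.6% of all 468. For EVEN the background shares became 15.5% and 60.8% under TMM factors, 19.2% and 48.9% under median-of-ratios size factors, and 26.5% and 37.9% when totals omitted the most abundant miRNAs. For ODD they became 18.8% and 57.7%, 23.1% and 50.6%, and 22.9% and 50.9% in the same order. The members higher and lower in EVEN then numbered 2 and 4, 3 and 4, and 4 and 3, and miR-206 fell under 2-fold with TMM factors. Those in ODD numbered 2 and 5, 2 and 4, and 2 and 4. The median log2 ratio of all miRNAs was -1.06 for EVEN and -2.19 for ODD, or -0.05 and -1.56 with miRNAs at 0 reads set to their bound. That of the members was -0.55 for EVEN, or 0.36 at the bound, and -2.34 for ODD.

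**Figure D3:**
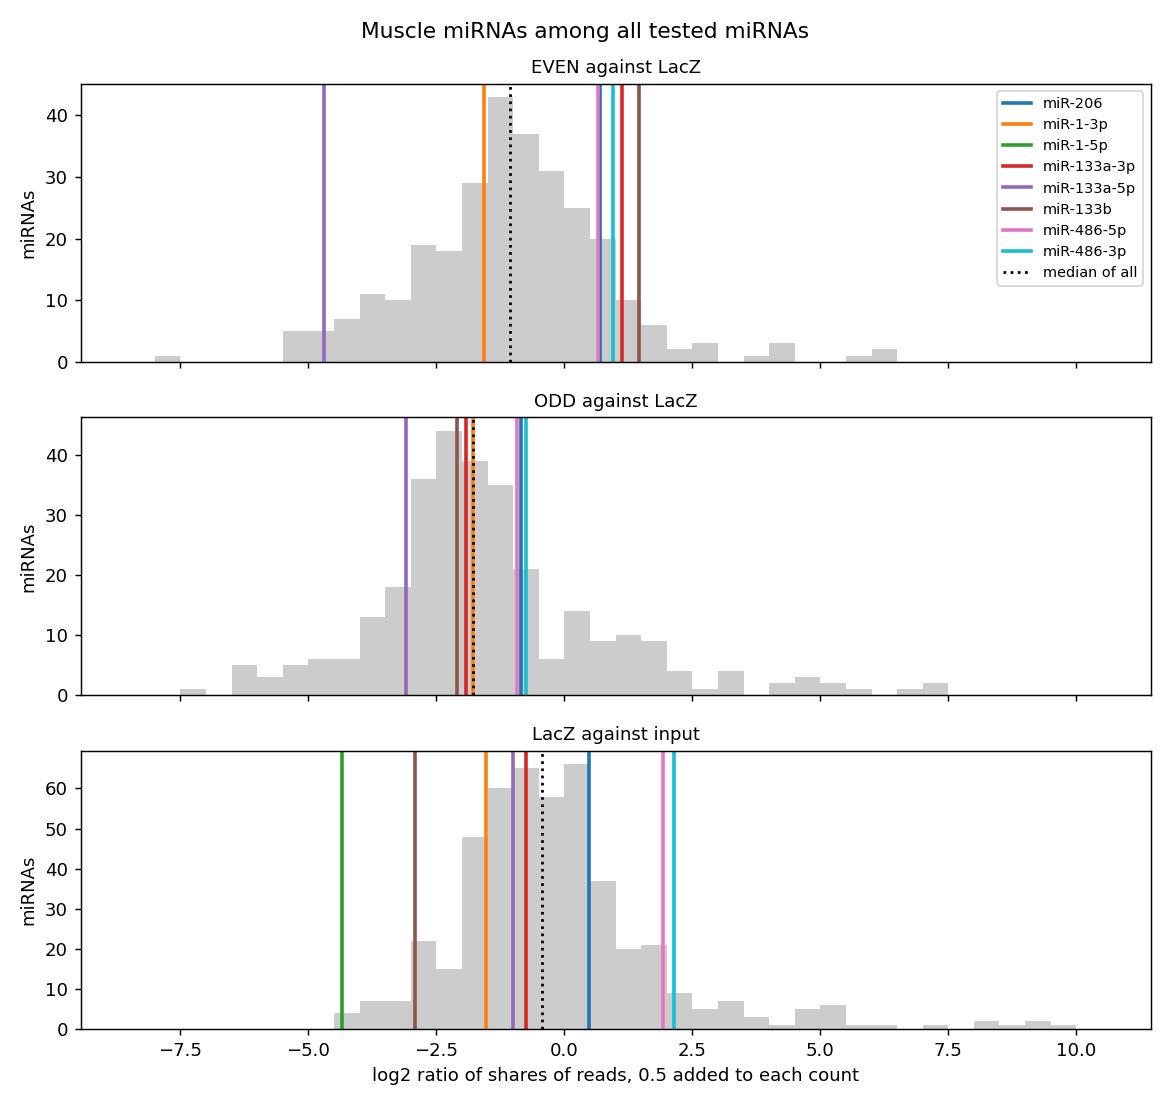
Histograms of the log2 ratios of all miRNAs compared (0.5 added to each count, bins of 0.5) for EVEN against LacZ, ODD against LacZ and LacZ against input, with coloured lines for the muscle miRNAs and a dotted line for the median of all. miR-206 and the miR-486 arms lie right of the median in all 3 panels, miR-133a-3p and miR-133b lie right of it only in EVEN against LacZ, and the lines of miR-133a-5p in EVEN and miR-1-5p in LacZ rest on 0 reads there.

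Ratios between muscle miRNAs within a library do not depend on the scaling between libraries. miR-206 over its seed partner miR-1-3p was 58.6 in EVEN (95% exact binomial interval 50.1 to 68.9), 23.4 in ODD (21.5 to 25.4), 12.2 in LacZ (11.7 to 12.8) and 3.01 in the input (2.97 to 3.04). The 4 intervals did not overlap, and the ratio was 4.78-fold higher in EVEN than in LacZ and 1.91-fold higher in ODD than in LacZ. miR-206 over miR-133b, its neighbour on chromosome 6, was 262 in EVEN (189 to 374), 1074 in ODD (628 to 2018), 440 in LacZ (340 to 582) and 41.2 in the input (39.8 to 42.7). All 3 pull-downs lay above the input in this ratio, the LacZ control among them.

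miR-206 over miR-486-5p was alike in the 3 pull-downs, at 14.9 in EVEN (13.7 to 16.1), 15.3 in ODD (14.3 to 16.4) and 14.5 in LacZ (13.9 to 15.3), against 39.2 in the input (37.8 to 40.6). The pull-down intervals overlap one another and lie below that of the input. The EVEN ratio was 1.02 times and the ODD ratio 1.06 times that of LacZ. So the differences of miR-206 and miR-486-5p from LacZ ran in parallel with either probe set.

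miR-133a-3p over miR-133b, which differ by the last base, was 17.8 in EVEN (12.7 to 25.7), 26.0 in ODD (15.0 to 49.3) and 22.3 in LacZ (17.1 to 29.6), against 4.91 in the input (4.72 to 5.10). The pull-downs overlapped one another and lay above the input. miR-1-3p over miR-133a-3p was 0.251 in EVEN (0.210 to 0.299), 1.77 in ODD (1.55 to 2.03), 1.61 in LacZ (1.50 to 1.73) and 2.79 in the input (2.74 to 2.85). EVEN stood apart in this ratio, at 0.156 times the LacZ ratio, while ODD was 1.10 times it.

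Between the arms of a precursor, miR-486-5p over miR-486-3p ranged narrowly, from 2.18 in EVEN (1.89 to 2.51) through 2.37 in ODD (2.10 to 2.68) and 2.67 in LacZ (2.44 to 2.92) to 3.12 in the input (2.91 to 3.35). The EVEN and ODD intervals lay below that of the input. miR-133a-3p over miR-133a-5p was at least 214 in EVEN against a floor of 3 reads, with an exact lower limit of 173. It was 56.3 in ODD (25.6 to 155), 23.1 in LacZ (17.7 to 30.9) and 19.1 in the input (17.7 to 20.5). Its LacZ and input intervals overlapped, EVEN lay above both, and ODD, from 6 reads of miR-133a-5p, overlapped LacZ and lay above the input. miR-1-3p outnumbered miR-1-5p 589-fold in the input (467 to 754).

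**Figure D4:**
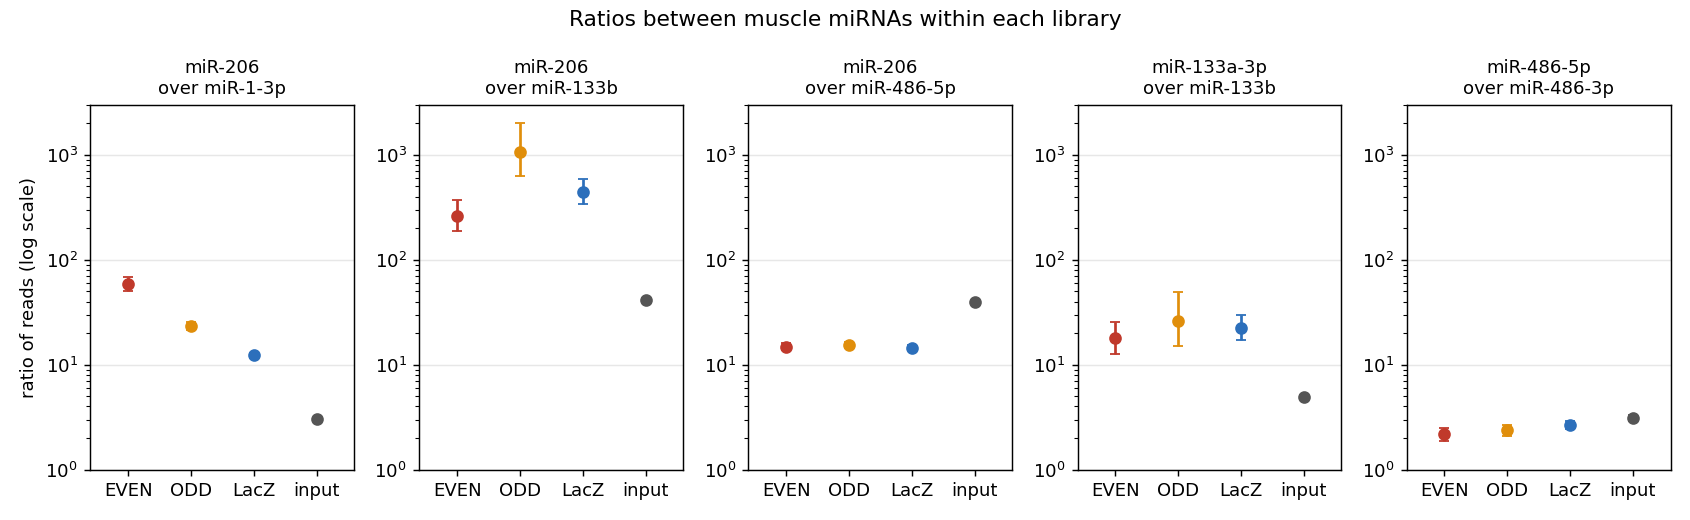
Ratios of reads between muscle miRNAs within EVEN, ODD, LacZ and input (log axis), with 95% exact binomial intervals. miR-206 over miR-1-3p is highest in EVEN (58.6) and lowest in the input (3.01), miR-206 over miR-486-5p lies between 14.5 and 15.3 in the 3 pull-downs against 39.2 in the input, and miR-486-5p over miR-486-3p stays between 2.18 and 3.12.

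The base composition of the mature members differed. GC content was 54.5% for miR-133a-3p, 50% for miR-133b, 45.5% for miR-206, 36.4% for miR-133a-5p, 31.8% for miR-1-5p and 27.3% for miR-1-3p. Across the miRNAs compared that had a RefSeq sequence, the log2 ratio to the input went along with GC content. Spearman's rho was 0.51 in EVEN (425 miRNAs), 0.50 in ODD (428) and 0.43 in LacZ (434). Of all miRNAs compared with the input, 150 of 464 had 0 reads in EVEN, 86 of 468 in ODD and 20 of 475 in LacZ. The ratios of those at 0 reads rest on the added 0.5. The miRNAs ranked share libraries and are not independent, and the 3 rho values share the input. Over LacZ, rho was 0.33 for EVEN (267 miRNAs) and 0.28 for ODD (277). For EVEN against ODD it was 0.03 (186 miRNAs). The part of GC content in the differences between members was not tested.

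Exon 2 of HIPK3, on chromosome 11 at 33286413 to 33287511 of GRCh38 (plus strand, 1099 nt), was searched for the reverse complement of the seeds, read as DNA on the sense strand and across the circular junction. ACATTCC, which would pair with the seed of miR-206 and miR-1-3p, had 0 matches, and so had GGACCAA for miR-133a-3p and miR-133b, AAGTATG for miR-1-5p and TACCAGC for miR-133a-5p. Among 3641 other protein-coding exons of 1000 to 1200 nt in GENCODE release 29, 7.09%, 6.84%, 5.69% and 6.12% held these strings. The search says only that these letters are not in this exon, and the seeds of the miR-486 arms were not searched for.

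The profiles most like a member were found by Euclidean distance between centred log2 shares over the 4 libraries, among 147 miRNAs with at least 100 reads in both LacZ and the input. miR-206 was closest to miR-320a-3p (distance 0.26), miR-99b-5p (0.37) and let-7d-3p (0.44), against a median distance of 2.40. miR-1-3p was closest to miR-130b-3p (0.46), miR-30c-5p (0.46) and miR-96-5p (0.48), with a median of 1.91. miR-133a-3p was closest to miR-421 (0.67), miR-532-3p (0.80) and miR-331-3p (0.92), and miR-133a-5p to miR-374a-5p (0.39), miR-138-5p (0.58) and miR-9-3p (0.67). miR-133b had miR-140-3p (1.67), miR-15b-3p (1.70) and miR-4521 (1.70) nearest, farther than the nearest of any other member compared.

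miR-197-3p was the miRNA nearest to both miR-486-5p (0.44) and miR-486-3p (0.80), followed by miR-92a-3p (0.78) and miR-501-3p (0.84) for the 5p arm and by miR-483-5p (1.06) and miR-296-3p (1.07) for the 3p arm. Among the members themselves, the 2 arms of miR-486 were the closest pair, at 0.39. miR-206 lay 1.21 from miR-486-5p, 1.66 from miR-133a-3p, 3.12 from its seed partner miR-1-3p and 3.40 from its genomic neighbour miR-133b.

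Other miRNAs of striated muscle were scarce. miR-499a-5p, which is encoded in a slow myosin gene, had 0 reads in EVEN and ODD, 7 in LacZ and 270 in the input, or 90.4 CPM there. miR-208b-3p, also encoded in a myosin gene, had 0, 0, 5 and 34 reads, and the other 4 of the 6 listed had at most 6 reads in any library. The miRNAs listed as heart muscle markers thus summed to 0 CPM in EVEN and ODD, 28.2 in LacZ and 103 in the input. A count of 0 in EVEN allows up to 30.3 CPM per miRNA, more than that LacZ sum. The 4 listed as skeletal muscle markers, miR-1-3p, miR-206, miR-133a-3p and miR-133b, summed to 103780, 34970, 66952 and 62125 CPM in the same order. Most of each of these 4 sums was miR-206. All 4 of those skeletal markers had reads in every library. Markers of other tissues were not all absent, since the endothelial miR-126 arms summed to 3992, 1834, 11540 and 14283 CPM in EVEN, ODD, LacZ and the input, and the neuronal pair to 2112, 1374, 8063 and 10059 CPM, nearly all miR-9-5p. Epithelial markers summed to 334 CPM in EVEN, 891 in ODD, 710 in LacZ and 97.7 in the input, and those of white blood cells to 212, 61.0, 65.8 and 40.5 CPM. Smooth muscle markers stayed at 77.0 CPM or lower and liver markers at 14.1 CPM or lower. Their part in the differences between libraries was not tested.

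Of 18 miRNAs linked to myogenesis, 11 had enough reads to be compared in EVEN against LacZ, with 1 higher and 8 lower beside 9.69% and 51.2% of all miRNAs. In ODD 10 were compared, with 3 higher and 6 lower beside 13% and 70.3% of all. TMM factors gave 4 higher and 2 lower in ODD, as did median-of-ratios size factors, and median-of-ratios size factors gave 1 higher and 6 lower in EVEN. By library totals the median log2 ratio of the list was -1.47 in EVEN and -2.00 in ODD, beside -1.06 and -1.79 over all miRNAs. miR-214-3p, which targets Ezh2 in mouse muscle cells, had 42, 3987, 473 and 2165 reads in EVEN, ODD, LacZ and the input, and was 2.62-fold lower in EVEN and 8.41-fold higher in ODD than in LacZ. miR-503-5p, which represses cell cycle genes, had 56, 5860, 672 and 10679 reads and was 2.79-fold lower in EVEN and 8.70-fold higher in ODD. miR-24-3p was 1.92-fold lower in EVEN and 2.70-fold higher in ODD, from 530 reads in EVEN, 11813 in ODD and 4367 in LacZ. By library totals these 3 thus ran opposite to miR-133a-3p and miR-133b between the probe sets. So did miR-424-5p, from 7 reads in EVEN, 234 in ODD and 145 in LacZ. It was 4.82-fold lower in EVEN (2.28 to 12.2) and 1.61-fold higher in ODD (1.30 to 1.99). The share of all miRNAs with this pattern was not counted, and other miRNAs of the list, given next, ran otherwise.

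miR-489-3p, a miRNA of quiescent muscle stem cells in mouse, had 50 reads in EVEN and 3 in ODD against 11 in LacZ, and was 19.5-fold higher in EVEN than in LacZ. miR-125b-5p, with 1246 reads in EVEN, 3557 in ODD and 15633 in LacZ, was 2.92-fold lower in EVEN and 4.41-fold lower in ODD than in LacZ. miR-26a-5p was 2.65-fold and 4.69-fold lower, miR-27b-3p 3.02-fold and 5.80-fold, and miR-181a-5p 4.12-fold and 5.92-fold. miR-378a-3p, which opposes a MyoD repressor in mouse, was 1.50-fold lower in EVEN and 3.63-fold lower in ODD. miR-29c-3p had 0 reads in EVEN, where it was at least 7.21-fold lower against a floor of 3 counts, with an exact lower limit of 5.75-fold. In ODD it was 4.66-fold lower. The other 7 of the list had at most 12 reads in any library.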

How the data were processed

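Per the labels' protocols, RNA from lysates or pull-downs of RD cells went into QIAseq miRNA libraries read single-end on a NovaSeq instrument. What the authors deposited are raw counts for each mature miRNA, whole numbers whose totals differ between the 4 libraries. The authors also deposited CPM, which equal count over library total to within 1.46e-11 CPM. The submitters' processing notes name GRCh38. Not given in the sources used here are the aligner, the miRNA annotation, how reads that fit several miRNAs were treated, and whether the kit's molecular tags were collapsed. Without collapsing, counting intervals would be too narrow.

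Each library was its own group with 1 replicate, so no test between groups has replicate error. Log2 ratios used (count + 0.5) over the library total, a minimum of 20 reads in at least 1 of 2 libraries and a 2-fold threshold. Folds are ratios of shares without the 0.5, with 95% exact conditional Clopper-Pearson intervals, and a bound against 3 counts where a library had 0 reads. Member sets, related lists, the rule for naming miRNAs (all 8 members, list members with at least 20 reads in any library, and the 3 most similar profiles) and comparisons were chosen with earlier results of these data known. Of the ratios within libraries, miR-206 over miR-133a-3p and over miR-486-5p, miR-1-3p over miR-133a-3p and over miR-1-5p, and miR-133a-3p over miR-133b were added after the values were seen. As alternatives, libraries were scaled with edgeR 4.0.16 (TMM), with DESeq2 1.42.0 (median-of-ratios size factors) or without the 10 most abundant miRNAs. Other minimums, added constants and thresholds were tried, near-identical miRNAs were summed, and edgeR and DESeq2 were fitted with adjusted p-values. Sequences came from RefSeq on GRCh38.p14, and loci and exons from GENCODE release 29. Ratios, intervals and the edgeR fit were checked on data simulated from the LacZ profile. Simulated EVEN and ODD libraries shared the same changes, unlike the real ones, so treating those as replicates was not checked. The simulations for intervals held counting error only. Python 3.11.15, pandas 2.3.3, scipy 1.17.1 and R 4.3.3 were used.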

Additional observations from a re-analysis of the deposited data

Results flagged for a closer look

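By library totals, 5 muscle miRNAs lay above LacZ with EVEN probes and below it with ODD probes, with counting intervals that exclude 1 in both. They are 5 of the 7 members compared, beside 15.5% of all 284 miRNAs compared with both sets, and 2 of 7 beside 11.3% with TMM factors. They are given here because the 2 pull-downs of the same exon moved in opposite directions relative to their shared control. The log2 ratio of EVEN over ODD was 1.54 for miR-206, 3.03 for miR-133a-3p, 3.54 for miR-133b, 1.59 for miR-486-5p and 1.71 for miR-486-3p. With 1 library per probe set the difference was not tested against replicate error. With TMM or median-of-ratios size factors miR-206 and both miR-486 arms lay above LacZ with both sets, while miR-133a-3p (-0.63 and -0.47 in ODD) and miR-133b (-0.81 and -0.65 in ODD) kept opposite directions. The depth of the 2 libraries also differed, with 98950 reads in EVEN and 426450 in ODD, and its part was not tested.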

How the results depend on the processing

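No paired analysis was possible because each group has 1 library, and no replicate could be left out. Counts of miRNAs past 2-fold moved with the read minimum and the threshold. For EVEN against LacZ the 176 became 397 at a minimum of 1 read, 95 at 100 reads and 88 at 4-fold. For ODD against LacZ the 250 became 672, 138 and 157, and 164 with median-of-ratios size factors. For EVEN against the input 327 became 919, 214 and 199, and for LacZ against the input 249 became 703, 151 and 100. For EVEN against ODD 114 became 343, 69 and 47, and for ODD against the input 382 became 840 at 1 read. A minimum of 1 or 100 changes how many miRNAs are compared. Of the members, EVEN against LacZ had 2 higher, which became 5 with median-of-ratios size factors, 5 without the 10 most abundant miRNAs, 1 at 100 reads and 0 at 4-fold, and 2 lower, which became 1 and 1 in the last 2 settings. ODD against LacZ had 0 higher, or 1 at 1 read, and 4 lower, or 1 under TMM, 1 under median-of-ratios scaling, 2 at 100 reads and 2 at 4-fold. ODD against the input had 1 higher, or 2 with each of the 3 other scalings and 0 at 4-fold. LacZ against the input had 2 higher and 4 lower, or 1 and 2 at 4-fold. EVEN against ODD had 5 higher, or 2 under TMM, 2 under median-of-ratios scaling and 2 at 4-fold, and 0 lower, or 1 at 1 read. With near-identical miRNAs summed, the log2 ratio given for miR-1-3p is that of miR-206 plus miR-1-3p, and turned to 0.60 in EVEN against LacZ, 0.79 in EVEN against the input and 0.19 in LacZ against the input, since most of the sum is miR-206. That of miR-133b is then the sum with miR-133a-3p, and turned to 0.18 in EVEN against the input. miR-1-5p turned to 0.99 in EVEN against the input with 5 added, a constant that weighs more in the shallower library. Of 330 alternative values for 46 member ratios, 19 changed sign, among them 6 under TMM, 5 under median-of-ratios scaling and 3 without the most abundant miRNAs. Where no construction is named, the cause was not tested. EVEN, at 98950 reads, limits the rare arms most.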
